A study of Mus musculus with 4 samples.

Results

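The genes described here are enzymes of glycolysis, carriers that bring glucose in and lactate out, and a set of known hypoxia-response genes. They were chosen by symbol, and all 37 were found among the 30282 genes of the deposited table. Each of the 37 had a mean normalised read count of at least 10 over the 4 libraries and so was tested, among 14928 genes in all. A normalised read count is the number of reads of a gene divided by a scaling factor of its library.

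The cells were V6.5 mouse embryonic stem cells in which RPB3, a core subunit of RNA polymerase II, carried a minimal auxin-inducible degron and GFP (dRPB3-mAID-GFP). Both groups were given doxycycline at 1 µg/ml for 12 h, which turns on TIR1, the plant protein that marks a degron-tagged protein for the proteasome. The untreated group (2 libraries) received nothing more. The IAA group (2 libraries) was afterwards given the auxin IAA at 500 µM, for 12 h by the sample labels, although another sentence of the protocol speaks of 1 h. All cells grew in serum medium with 3 µM CHIR99021, an inhibitor of GSK3, and 0.5 µM PD0325901, an inhibitor of MEK, and libraries were made from poly(A) RNA. Whether the line is 1 clone and whether the replicates were separate cultures is not given in the sources used here, so the p-values cover only how far these libraries spread, and that spread may be technical. Cells given IAA without a degron were not analysed here, and effects of IAA itself and of RPB3 loss cannot be told apart.

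Glycolysis splits glucose to pyruvate in the cytosol. Lactate dehydrogenase can turn the pyruvate to lactate, which leaves the cell through monocarboxylate carriers, and pluripotent stem cells are known for leaning on this route. The hypoxia-inducible factors (HIF) pair an alpha with a beta subunit. In ample oxygen, prolyl hydroxylases mark the alpha subunit and the VHL ubiquitin ligase has it degraded, so HIF activity is set mainly through the protein. In low oxygen HIF binds a short element with the core ACGTG or GCGTG near its targets, which include most glycolytic enzymes.

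The recovered reads came to between 8724737 and 9194432 per library. All 11 embryonic stem cell markers were present, summing to 65765 and 67364 normalised reads in the untreated and 70393 and 67803 in the IAA libraries. Of these 11 genes 5 were higher after IAA (Klf4 0.52, Klf2 0.43, Nanog 0.33, Tfcp2l1 0.27 and Fgf4 0.15 in log2 fold change) and 4 lower (Dppa5a -0.36, Tdgf1 -0.27, Pou5f1 -0.24 and Zfp42 -0.15), or 7 and 3 with median-of-ratios factors. Of 11 markers of feeder fibroblasts, 7 were found, and they summed to 429 and 502 in the untreated and 353 and 361 in the IAA libraries. Col3a1 and Prrx1 had 0 to 2 in every library, while Col1a1 (log2 fold change -0.76) and Thy1 (-0.78) were lower after IAA. Pdgfrb, with the highest counts of the 7, had 234 and 253 in the untreated and 232 and 223 in the IAA libraries and was not called (-0.10). The 7 primitive endoderm markers summed to 261 and 229 in the untreated and 221 and 256 in the IAA libraries, and none was called. The part of such cells, and of the stem cell markers' changes, in the results below was not tested. In bulk RNA, fewer cells of a type and less RNA per cell cannot be told apart. Polr2c, which encodes RPB3, had a log2 fold change of 0.19, but the degron acts on the protein, so this mRNA does not check the depletion.

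RefSeq promoter windows (250 bases before to 50 after a gene's start, build GRCm38.p6) were found for 33 of the 37 genes, all but Ndrg1, Slc2a3, Bnip3l and Epas1. Both strands were searched, that is, for ACGTG and CACGT and for GCGTG and CACGC, in every window of a gene. Of the 33 genes, 25 (75.76%) held ACGTG, 21 (63.64%) GCGTG and 30 (90.91%) either core. Of the 10717 tested genes with a window, 29.24%, 55.58% and 67.15% did. Among all 27025 genes with one, 21.78%, 35.15% and 46.73% did. Known HIF targets were chosen for the list, so these shares are no independent result. Eno2, Gpi1 and Tpi1 had no match in these windows. A match stood in 19 of the 21 genes that were lower after IAA and in 10 of the 11 with a window that were called in neither direction. The windows of 3 genes that fell and of Bnip3, a HIF target that was not called, are shown because they differ in which core they hold. They run 5′ to 3′ on the gene's strand, with every match in capitals. For Ldha, which has 2 windows, the one with more matches is given.
Pfkp, chr13:6648722-6649021, minus strand: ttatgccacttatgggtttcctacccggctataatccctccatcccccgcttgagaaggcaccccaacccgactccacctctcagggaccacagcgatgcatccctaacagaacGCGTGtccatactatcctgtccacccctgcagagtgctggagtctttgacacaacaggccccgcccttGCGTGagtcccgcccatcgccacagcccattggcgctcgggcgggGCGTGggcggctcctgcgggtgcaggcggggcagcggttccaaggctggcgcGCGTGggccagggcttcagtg
Ldha, chr7:46845554-46845853, plus strand: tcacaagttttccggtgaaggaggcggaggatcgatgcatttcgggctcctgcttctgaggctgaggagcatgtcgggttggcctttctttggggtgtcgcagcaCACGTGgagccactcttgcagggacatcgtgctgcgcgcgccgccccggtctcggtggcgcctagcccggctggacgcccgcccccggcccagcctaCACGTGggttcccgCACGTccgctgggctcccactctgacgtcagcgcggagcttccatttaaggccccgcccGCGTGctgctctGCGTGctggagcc
Pgk1, chrX:106186850-106187149, plus strand: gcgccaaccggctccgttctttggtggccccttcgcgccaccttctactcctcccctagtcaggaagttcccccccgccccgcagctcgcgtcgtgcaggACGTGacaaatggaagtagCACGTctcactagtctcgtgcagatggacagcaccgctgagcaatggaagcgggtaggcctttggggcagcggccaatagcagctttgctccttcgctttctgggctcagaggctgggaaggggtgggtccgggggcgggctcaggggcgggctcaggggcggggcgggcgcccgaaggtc
Bnip3, chr7:138909457-138909756, minus strand: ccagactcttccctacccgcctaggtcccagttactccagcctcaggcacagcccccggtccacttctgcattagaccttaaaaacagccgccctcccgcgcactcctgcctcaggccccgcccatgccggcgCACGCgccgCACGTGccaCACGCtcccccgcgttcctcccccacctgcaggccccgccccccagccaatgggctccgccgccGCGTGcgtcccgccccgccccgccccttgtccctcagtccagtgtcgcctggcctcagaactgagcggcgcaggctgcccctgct
The Pfkp window holds 4 GCGTG and no ACGTG, and the Pgk1 window 2 ACGTG and no GCGTG. The Ldha window holds 5 ACGTG and 2 GCGTG, where each of its 2 CACGTG counts as ACGTG on both strands. Bnip3 has 2 ACGTG, both from 1 CACGTG, and 3 GCGTG. A match is a run of letters and shows no binding.

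At the deposited scaling, glycolytic enzymes were lower after IAA at almost every step. Of the 4 membrane carriers, 2 were higher and 1 lower. Most of the 12 listed hypoxia-response genes outside glycolysis were called in neither direction. Of the 37 genes, 21 were lower and 2 higher at an adjusted p under 0.05 (limma, Benjamini-Hochberg adjustment over all genes tested), where 28.9% of all genes tested were lower and 11.1% higher. Among the 21 glycolytic and directly linked enzymes, 18 were lower and none higher, and all 21 had a negative log2 fold change. Of the 12 HIF subunits, hydroxylases and other HIF targets, 2 were lower (Hif1a and P4ha2) and none higher. The median log2 fold change was -0.22 over the 37 genes, -0.33 over the 21 enzymes and -0.11 over the 12, beside -0.11 over all genes tested. Both IAA libraries were below both untreated ones in 26 of the 37 genes and above them in 5, where 45.6% and 22.5% of all genes tested were. Abundant genes are called more often: among the 2601 with a mean of at least 1000, 43.6% were lower and 16.9% higher, with a median of -0.08.

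These counts depend on the scaling of the libraries. Median-of-ratios factors move the median of all genes tested by 0.10, to -0.01, and with them 18 of the 37 genes were lower and 5 higher, where 20.5% and 20.3% of all genes tested were. The 18 were all among the 21, and the enzymes among them numbered 15, with none higher. Of the 12 HIF subunits, hydroxylases and other HIF targets, 2 were then lower and 3 higher. By the authors' deposited table, of the 37 genes 13 were lower and 1 higher at an adjusted p under 0.05, where 9.57% and 2.47% of the 11495 genes with an adjusted p were. The 13 were all enzymes, and the 1 higher gene was Slc2a3. The SE of each of the 37 genes was larger there than in limma, as in Ldha (0.15 against 0.05) and Pgk1 (0.13 against 0.05). The adjusted p was larger too in all but Pfkp. Without any 1 library, limma on the rounded deposited values called none of the 37 and none of all genes tested, with 16 to 22 of the 37 at an unadjusted p under 0.05. On unrounded values it then called 20 to 25 lower and 1 to 2 higher, where 23.3% to 26.4% of all genes tested were lower and 7.68% to 10.8% higher.

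**Figure D1:**
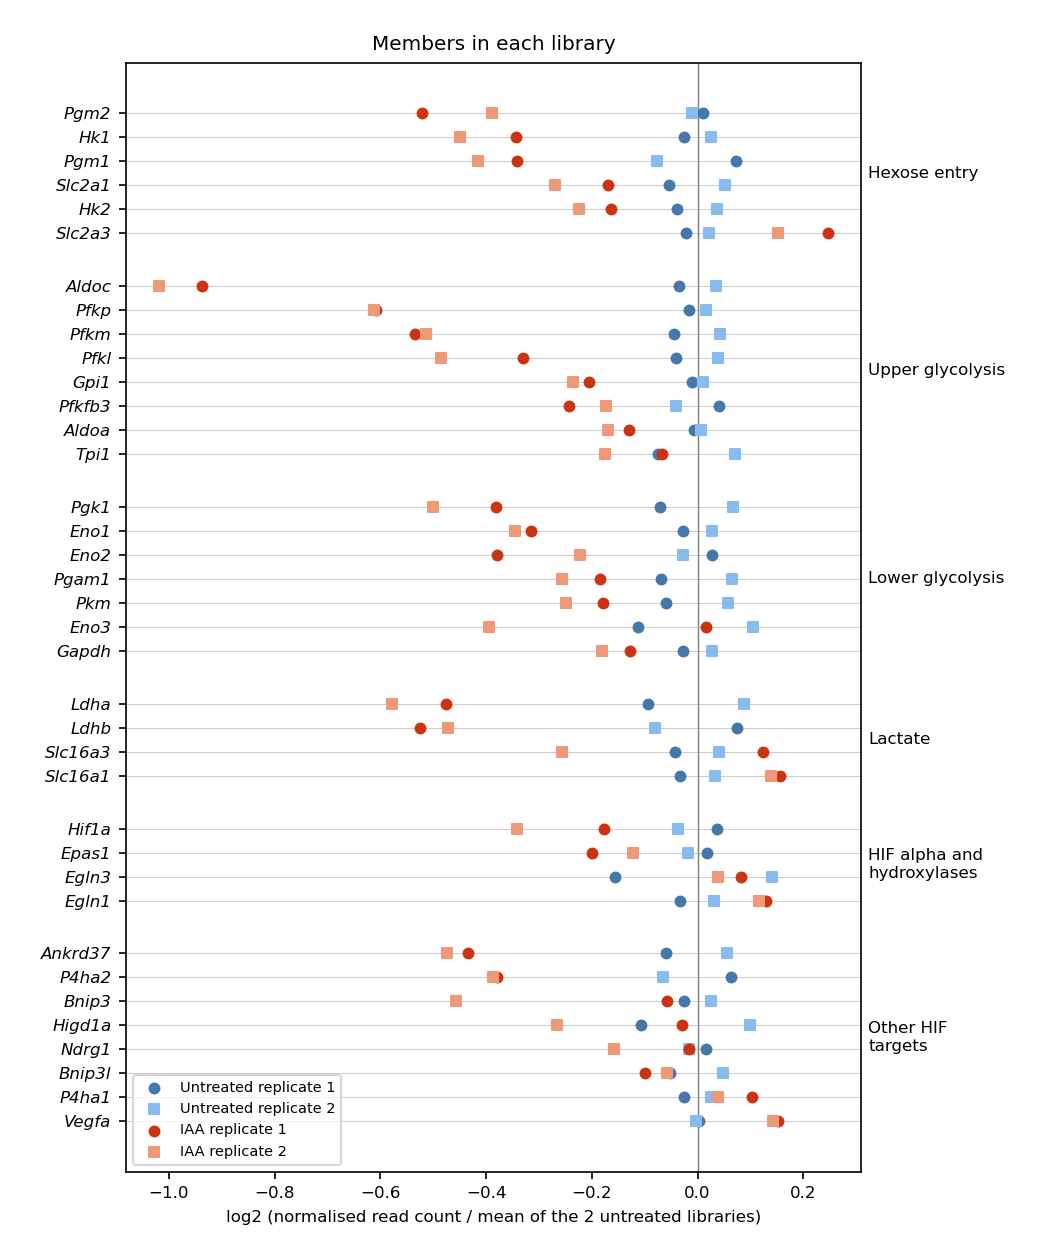
Each point is 1 library, with log2 of its normalised read count over the mean of the 2 untreated libraries on the horizontal axis and genes grouped by role on the vertical axis. Both IAA libraries lie left of both untreated libraries for 26 genes and right of them for 5 (Slc2a3, Slc16a1, Egln1, P4ha1 and Vegfa).

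Glucose entry split by gene: Slc2a3 rose while Slc2a1, the hexokinase genes and the phosphoglucomutase genes fell. Slc2a3 (ENSMUSG00000003153, chromosome 6, 122727809 to 122801640, GRCm38) encodes GLUT3, a glucose carrier of high affinity. Its normalised read counts were 14449 and 14886 without IAA and 17395 and 16298 with it. Both IAA libraries were above both untreated ones, a rise of 14.8% (log2 fold change 0.20, SE 0.03, adjusted p = 4.94e-05). Slc2a1, which encodes the widespread carrier GLUT1, had 1593 and 1714 in the untreated and 1471 and 1373 in the IAA libraries (-0.22, SE 0.05, adjusted p = 0.0026). The groups did not overlap, and the gap between them was about as wide as the gap within each group. Slc2a1 was not called in the authors' deposited table (adjusted p = 0.174).

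The hexokinases trap glucose in the cell as its phosphate. Hk1, the broadly expressed form, had 2119 and 2197 in the untreated and 1701 and 1581 in the IAA libraries (log2 fold change -0.40, SE 0.05, adjusted p = 2.29e-06). Hk2, the inducible form and a HIF target, had 4097 and 4316 against 3757 and 3603 (-0.19, SE 0.04, adjusted p = 0.00066). Both fell, Hk1 by 24.0% and Hk2 by 12.5%, and Hk2 missed the threshold in the authors' deposited table (adjusted p = 0.0783). The phosphoglucomutase genes Pgm1 and Pgm2 fell too. Pgm2 fell from 607 and 598 to 420 and 460 (-0.45, SE 0.07) and Pgm1 from 456 and 411 to 342 and 325 (-0.38, SE 0.08), each with groups that did not overlap. In the authors' deposited table Pgm2 was called (adjusted p = 0.0424) and Pgm1 was not (adjusted p = 0.178). Pgm1 shares exon sequence with Itgb3bp on the opposite strand, whose reads came to 20.4% of those of Pgm1 in the untreated libraries. The strand setting of the counting is not given in the sources used here, so reads of such pairs cannot be told apart.

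Upper glycolysis, from glucose phosphate to the triose phosphates, held the largest falls among the 37 genes. Of its 8 genes 6 were lower and none higher, where 28.9% and 11.1% of all genes tested were. The median log2 fold change of the 8 was -0.31. Aldoc (ENSMUSG00000017390, chromosome 11, 78322968 to 78327781) encodes aldolase C, the aldolase best known from brain. It had 239 and 251 in the untreated and 128 and 121 in the IAA libraries, a fall of 49.0% (log2 fold change -0.97, SE 0.11, adjusted p = 1.24e-06). The authors' deposited table gave Aldoc an SE of 0.26 and an adjusted p of 0.0036. Aldoa, the abundant aldolase, had 9200 and 9282 against 8442 and 8215 (-0.15, SE 0.03, adjusted p = 0.00072). The groups of Aldoa did not overlap, but with median-of-ratios factors it was not called (-0.05, adjusted p = 0.172), nor was it in the authors' deposited table (adjusted p = 0.0889).

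Phosphofructokinase commits sugar to glycolysis, and all 3 of its genes fell. Pfkp, the platelet form (ENSMUSG00000021196, chromosome 13, 6579768 to 6648777), had 5995 and 6124 in the untreated and 3976 and 3965 in the IAA libraries, a fall of 34.5% (log2 fold change -0.61, SE 0.04, adjusted p = 1.67e-10). The libraries of a group lay close together, with SDs of 91.2 and 7.78 (n = 2). Pfkm, the muscle form, fell from 468 and 497 to 333 and 338 (-0.52, SE 0.08), and Pfkl, the liver form, from 1790 and 1890 to 1464 and 1314 (-0.41, SE 0.05). Opposite-strand neighbours overlap 2 of these genes: Pitrm1 at Pfkp, with means of 2282 and 1922 (log2 fold change -0.25), and Senp1 at Pfkm, with 988.5 and 1003 (0.02). Senp1 had 205% of the reads of Pfkm, and its values moved little while those of Pfkm fell.

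The other genes of the upper part differed in size of change. Gpi1, the isomerase that feeds phosphofructokinase, fell from 6945 and 7039 to 6063 and 5937 (log2 fold change -0.22, SE 0.03, adjusted p = 2.56e-05). Tpi1, which interconverts the triose phosphates, had 3289 and 3640 against 3308 and 3068 and was not called (-0.12, SE 0.05, adjusted p = 0.0537). Its groups overlapped, since IAA replicate 1 exceeded untreated replicate 1, and several alternative settings put it just past the threshold. Pfkfb3, which makes the activator of phosphofructokinase, had 219 and 207 against 180 and 189 (-0.21, SE 0.11, adjusted p = 0.134), with groups that did not overlap but no call.

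**Figure D2:**
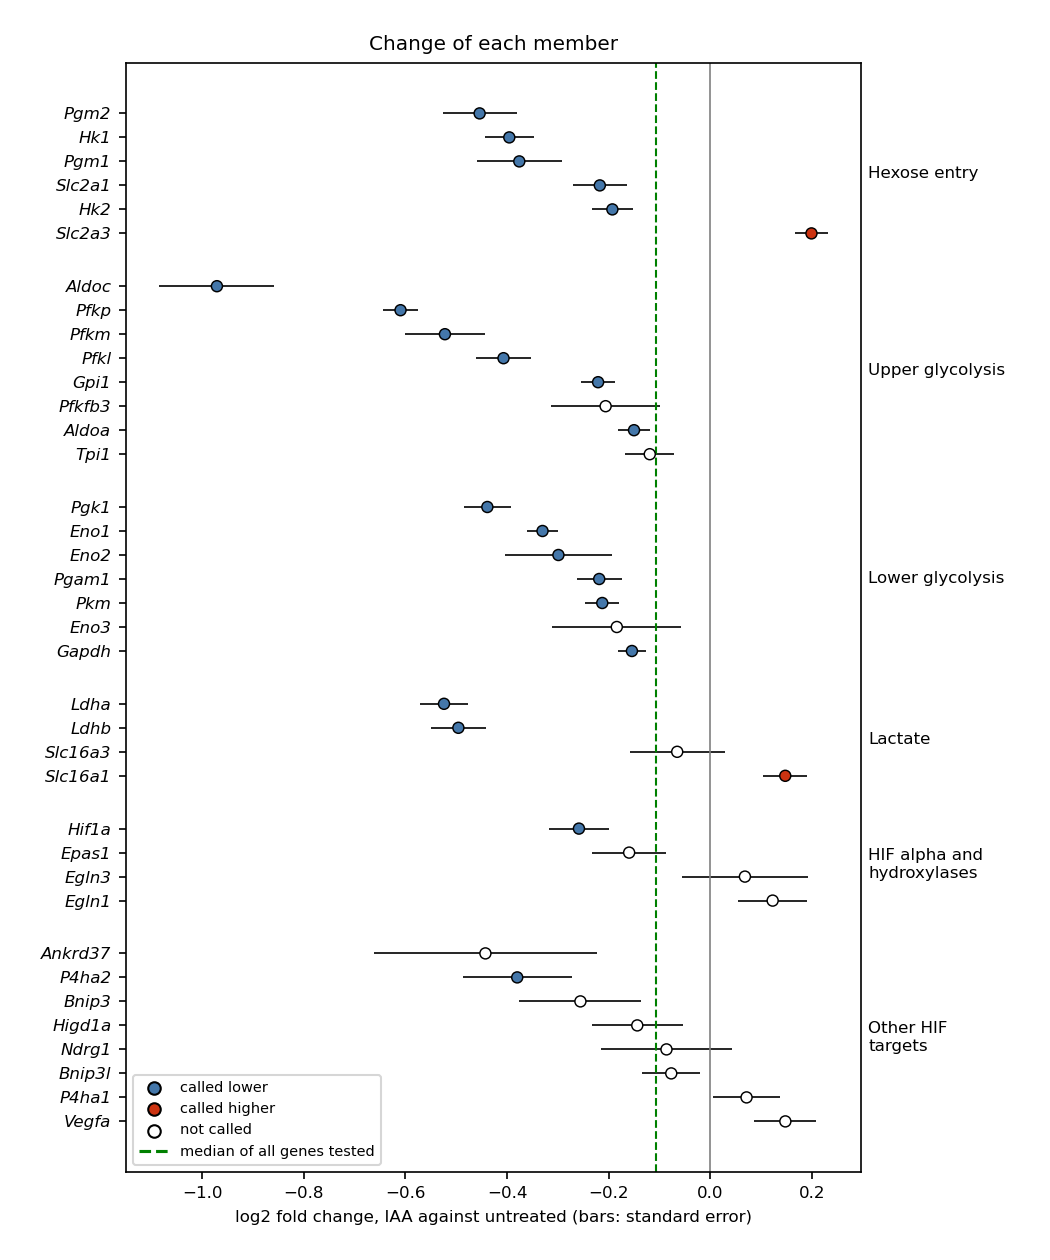
Points give the log2 fold change of IAA against untreated libraries from limma, bars its standard error, filled points the called genes, and the dashed line the median of all genes tested (-0.11). Aldoc (-0.97) and Pfkp (-0.61) lie farthest left, Slc2a3 (0.20) farthest right, and most genes of the lower 2 groups sit near the dashed line or right of it.

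Lower glycolysis, where ATP is regained, was lower in 6 of 7 genes, where 28.9% of all genes tested were. The median log2 fold change of the 7 was -0.22. Pgk1, the kinase of the first ATP-forming step (ENSMUSG00000062070, chromosome X, 106187100 to 106203699), fell most, from 4859 and 5349 to 3919 and 3609 (-0.44, SE 0.05, adjusted p = 3.35e-07). The authors' deposited table gave Pgk1 an SE of 0.13 and an adjusted p of 0.0096. Gapdh, the dehydrogenase often used as a reference gene, fell least among the called genes of this stretch, from 25813 and 26829 to 24089 and 23217 (-0.15, SE 0.03, adjusted p = 0.000178). With median-of-ratios factors Gapdh was at -0.05 and just missed the threshold (adjusted p = 0.0506), so its call rests on the deposited scaling. Pgam1, a mutase, fell from 3760 and 4125 to 3471 and 3300 (-0.22, SE 0.04), and was not called in the authors' deposited table (adjusted p = 0.0553). Pkm, the pyruvate kinase whose transcripts encode M1 and M2, fell from 19743 and 21394 to 18161 and 17320 (-0.21, SE 0.03). The table gives 1 value for Pkm, so the isoforms were not analysed here.

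Enolase makes phosphoenolpyruvate, and its 3 genes differed. Eno1, the widespread form, fell from 14352 and 14915 to 11761 and 11516 (log2 fold change -0.33, SE 0.03, adjusted p = 5.83e-08). The 4 near copies, Eno1b among them, were counted apart and summed to 9.14% of Eno1 in the untreated and 9.3% in the IAA libraries. With the copies added, the log2 ratio of the group means was still -0.33. Eno2, the neuronal form, had 240 and 231 against 181 and 202 (-0.30, SE 0.11, adjusted p = 0.0292). That call was lost at the median-of-ratios scaling (-0.20, adjusted p = 0.138), in the authors' deposited table (adjusted p = 0.49), and on unrounded values without untreated replicate 1 (adjusted p = 0.102) or IAA replicate 1 (adjusted p = 0.214). Eno3, the muscle form, had 203 and 236 against 222 and 167, with overlapping groups and no call (-0.18, SE 0.13, adjusted p = 0.266).

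Both lactate dehydrogenase genes fell by nearly the same factor, and of the 2 lactate carriers 1 rose and 1 was not called. Ldha (ENSMUSG00000063229, chromosome 7, 46841475 to 46855627) encodes the form that favours lactate and is a classic HIF target. It had 6508 and 7377 in the untreated and 4991 and 4651 in the IAA libraries, a fall of 30.5% (log2 fold change -0.52, SE 0.05, adjusted p = 4.93e-08). The authors' deposited table gave Ldha an SE of 0.15 and an adjusted p of 0.0085. Ldhb, the form that favours pyruvate, fell by 29.1%, from 1823 and 1637 to 1202 and 1248 (-0.50, SE 0.05, adjusted p = 6.55e-07). In both genes each IAA library was well below both untreated ones. Slc16a1, which encodes the carrier MCT1, rose from 2164 and 2264 to 2467 and 2437 (0.15, SE 0.04, adjusted p = 0.0103). This call was lost in the authors' deposited table (adjusted p = 0.297) and on unrounded values without untreated replicate 1 (adjusted p = 0.0647) or IAA replicate 1 (adjusted p = 0.069). Slc16a3, which encodes the HIF-induced carrier MCT4, had 494 and 523 against 554 and 426, so that the IAA libraries lay on both sides of the untreated ones (-0.07, SE 0.09, adjusted p = 0.615).

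Of the HIF alpha subunits and their hydroxylases, 1 of 4 was lower and none higher, where 28.9% and 11.1% of all genes tested were. Hif1a (ENSMUSG00000021109, chromosome 12, 73901375 to 73947530), which encodes the main alpha subunit, had 1242 and 1180 in the untreated and 1071 and 956 in the IAA libraries (log2 fold change -0.26, SE 0.06, adjusted p = 0.00178). It was not called in the authors' deposited table (adjusted p = 0.131), nor on unrounded values without IAA replicate 2 (-0.18, adjusted p = 0.0518). Epas1, which encodes the second alpha subunit, had 522 and 509 against 449 and 474 (-0.16, SE 0.07, adjusted p = 0.0859), with groups that did not overlap but no call. The prolyl hydroxylase genes lay on the other side of 0. Egln1, the main oxygen sensor, had 523 and 547 against 585 and 580 (0.12, SE 0.07, adjusted p = 0.163), and Egln3, itself a HIF target, had 145 and 178 against 171 and 166 (0.07, SE 0.12). With median-of-ratios factors Egln1 was called higher (0.22, adjusted p = 0.00701), while Egln3 was not.

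Among 8 further HIF targets, 1 was lower and none higher, where 28.9% and 11.1% of all genes tested were. P4ha2, a subunit of collagen prolyl hydroxylase, fell from 235 and 215 to 173 and 172 (log2 fold change -0.38, SE 0.11, adjusted p = 0.00806). It was not called in the authors' deposited table (adjusted p = 0.364), nor on unrounded values without untreated replicate 1 (adjusted p = 0.0665). P4ha1, which encodes the other catalytic subunit, had 608 and 630 against 665 and 636 and was not called (0.07, SE 0.07, adjusted p = 0.414). Vegfa, the angiogenic growth factor, had 700 and 698 against 777 and 772, with replicates close together, and narrowly missed the threshold (0.15, SE 0.06, adjusted p = 0.0593). With median-of-ratios factors Vegfa (0.25, adjusted p = 0.000754) and P4ha1 (0.17, adjusted p = 0.0307) were called higher. Ankrd37, a small ankyrin repeat protein, had the lowest counts of the list, 48 and 52 against 37 and 36 (-0.44, SE 0.22, adjusted p = 0.117). Ufsp2, on the opposite strand across its exons, had 610% of its reads and a log2 fold change of -0.73, so the value of Ankrd37 may hold reads of its neighbour.

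The mitophagy receptors and the remaining targets were not called. Bnip3 had 228 and 236 in the untreated and 223 and 169 in the IAA libraries (log2 fold change -0.26, SE 0.12, adjusted p = 0.0978), so that IAA replicate 2 lay apart from the other 3 libraries. Near copies of Bnip3 summed to 4.1% of it in the untreated and 11.5% in the IAA libraries, and with them added the log2 ratio was -0.14. Bnip3l, its relative, had 976 and 1047 against 945 and 972 (-0.08, SE 0.06). Ndrg1, a stress-induced gene, had 141 and 138 against 138 and 125 (-0.09, SE 0.13). Higd1a, a mitochondrial inner membrane protein, had 419 and 483 against 442 and 375 (-0.14, SE 0.09), with overlapping groups.

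Levels were compared between genes per kilobase of the union of all exons. This length exceeds the longest transcript unevenly, with 5379 against 2027 bases in Eno1 and 7245 against 6253 in Slc2a3. The order of the highest genes given here holds for the union length and differs by the longest transcript. By the mean of 4 libraries, Gapdh was highest at 6046 normalised reads per kilobase, followed by Pkm at 3830, Aldoa at 3018, Eno1 at 2442 and Slc2a3 at 2175. The first 4 are enzymes and the fifth is the GLUT3 gene. Ankrd37 (28.1), Pfkfb3 (26.3) and Ndrg1 (20.5) were at the bottom. Across the 37 genes, log2 fold change showed little relation to log2 mean count (Spearman rho 0.046, Pearson r 0.105) and to log2 gene span (rho 0.031, r 0.116), as a description of genes measured in the same 4 libraries.

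Within gene families the balance of isozymes shifted in some and not in others. A share here is a gene's part of its family's summed per-kilobase level in a library, with 2 against 2 libraries, for which an exact two-sided permutation test cannot go below p = 0.333, so no test is given. The share of Slc2a3 over Slc2a1 was 81.4% and 80.8% in the untreated and 85.1% and 85.2% in the IAA libraries. Hk2 held 73.4% and 73.7% of the hexokinase pair before and 75.9% and 76.5% after IAA. Both shares were higher in each IAA library than in each untreated one. Aldoc had 2.27% and 2.36% of the aldolase pair before and 1.33% and 1.30% after. Pfkp had 52.3% and 51.4% of phosphofructokinase before and 48.2% and 49.8% after, while Pfkl had 31.3% and 31.9% before and 35.6% and 33.1% after. For Pfkp and Pfkl the gap between groups was no wider than the gap between the IAA libraries. P4ha1 held 79.7% and 81.6% of its pair before and 85.4% and 84.9% after. In contrast Ldha, with 62.9% and 68.1% before and 66.3% and 63.9% after, kept a share within the spread of its replicates. The shares of Eno1, Egln1, Bnip3, Pgm1 and Pfkm overlapped between groups too. The size of a share depends on the length used. By the longest transcript, Hk2 held 60.01% and 60.39% before and 63.15% and 63.88% after IAA. P4ha1 then held 66.2% and 68.92% before and 74.42% and 73.67% after.

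**Figure D3:**
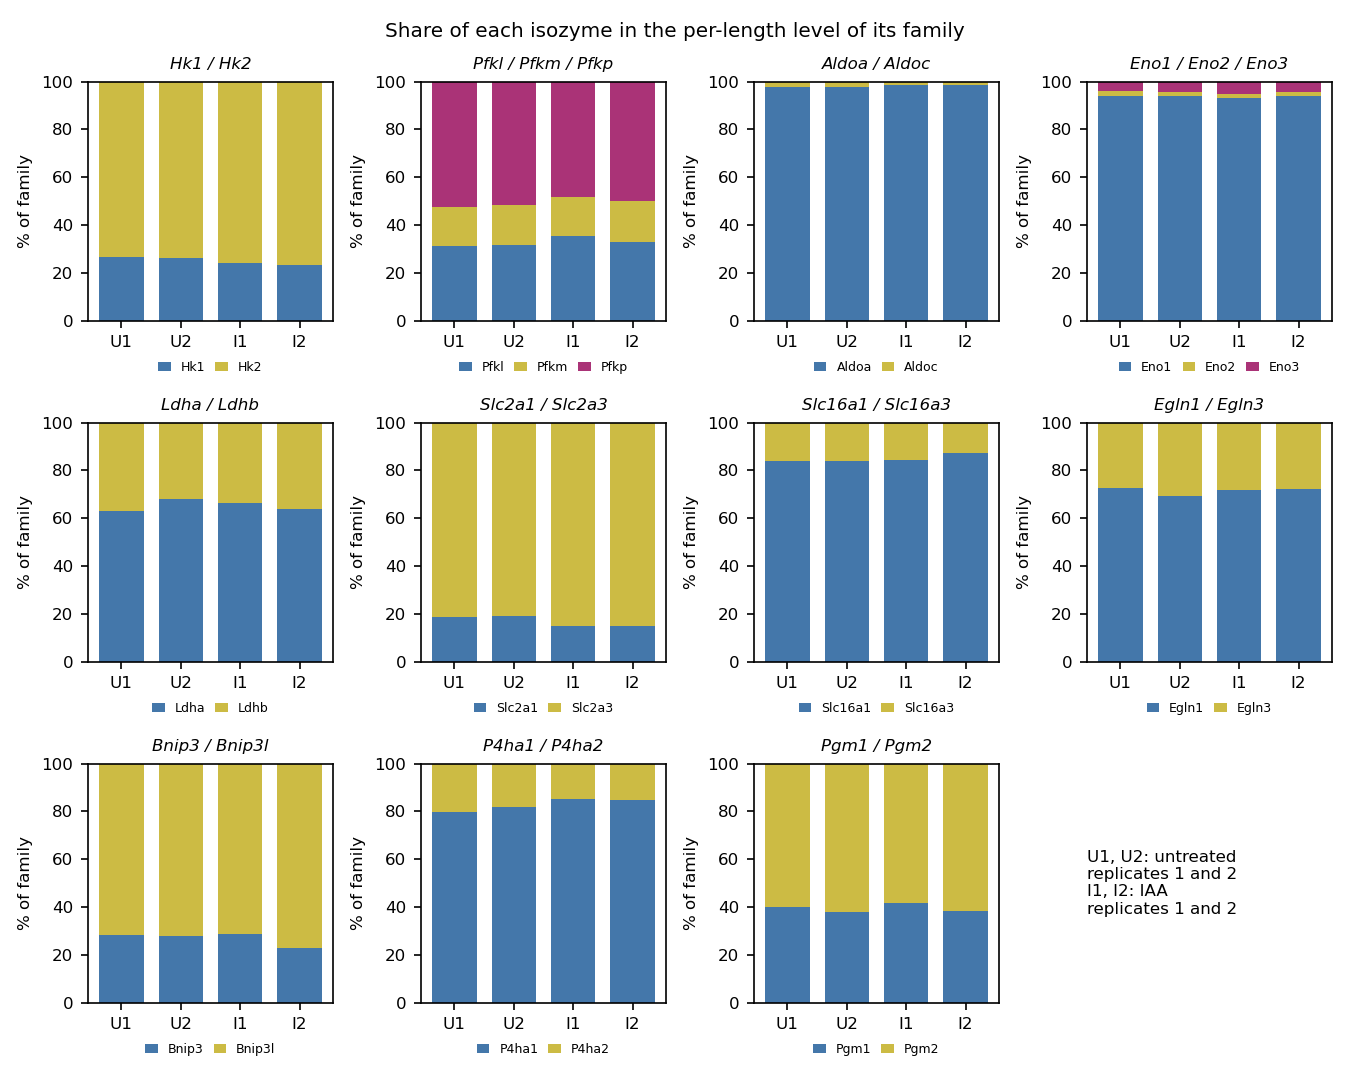
Stacked bars give each isozyme's share (%, vertical axis) of its family's per-length level in the 4 libraries of the horizontal axis (U untreated, I IAA). Slc2a3 goes from 80.8% to 81.4% in the untreated libraries to 85.1% to 85.2% in the IAA libraries, while Ldha spans 62.9% to 68.1% and 63.9% to 66.3%.

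Replicates of a group also differed in a shared direction. Untreated replicate 2 was above untreated replicate 1 in 27 of the 37 genes (median log2 difference 0.06), against 55.7% of all genes tested (0.02). IAA replicate 1 was above IAA replicate 2 in 30 of the 37 (0.06), against 56.1% (0.02). Single genes differed more: IAA replicate 1 exceeded IAA replicate 2 by 0.41 in Eno3, 0.40 in Bnip3 and 0.38 in Slc16a3 on the log2 scale, and none of these 3 genes was called.

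Neighbouring pathways, from lists drawn up with earlier results of these data known, place these values. Beside the counts below, 28.9% of all genes tested were lower and 11.1% higher, or 20.5% and 20.3% with median-of-ratios factors. Of 16 genes of the tricarboxylic acid cycle, 14 were lower and none higher (median -0.27), with Sdhb at -0.51, Suclg2 at -0.40 and Cs at -0.36. The first is a subunit of succinate dehydrogenase, the second a subunit of succinyl-CoA ligase and the third citrate synthase. Median-of-ratios factors left 10 of the 16 lower. In the pentose phosphate pathway, which makes NADPH and ribose, 5 of 8 were lower (Pgls -0.35, Taldo1 -0.35, H6pd -0.26). The only higher gene there was Pgd (0.22), named after its value was seen. Median-of-ratios factors left 4 of the 8 lower. Of 12 tested genes of glycogen and glucose synthesis, 5 were lower and 1 higher (median -0.29), led by Pck2 (-0.90), Pygl (-0.77) and G6pc3 (-0.36).

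At the gate between glycolysis and the mitochondrion, 5 of 13 genes were lower and none higher, where 28.9% and 11.1% of all genes tested were. The median of the 13 was -0.09, beside -0.11 over all genes tested. Pdk1, the kinase that shuts pyruvate dehydrogenase and a HIF target, had 902 and 877 in the untreated and 317 and 274 in the IAA libraries (log2 fold change -1.59, SE 0.08, adjusted p = 1.9e-11). Pdp1, the phosphatase that opposes it, was at -0.79 and Pdk4, another such kinase, at -0.57, both called. Median-of-ratios factors gave 4 lower and 3 higher. Among 11 tested further isozymes and regulators of glycolysis, 4 were lower, among them Pgam2 (-1.02) and Pfkfb1 (-0.70), and 1 higher. The higher one was Tigar (0.32), a phosphatase that diverts sugar from glycolysis, named after its value was seen. Pgam2 had low counts, 64 and 66 in the untreated and 31 and 32 in the IAA libraries. Median-of-ratios factors gave 2 lower and 1 higher of the 11, and the authors' deposited table none lower and 1 higher. Of 5 tested further carriers and chaperones 2 were lower, Slc2a8 (-0.49) and Bsg (-0.17), the chaperone of MCT1. Slc16a8 was higher (1.17) at counts of 6, 6, 18 and 12. Median-of-ratios factors gave 1 lower and 2 higher of these 5 genes.

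HIF targets outside the list went both ways. Of 35 tested, 10 were lower and 8 higher, where 28.9% and 11.1% of all genes tested were. The median of the 35 was -0.11, equal to that of all genes tested, and median-of-ratios factors gave 7 lower and 10 higher. The largest changes among them were falls, of Pdk1, Car12 (-1.08, SE 0.33) and Car9 (-0.98, SE 0.28), the last 2 encoding carbonic anhydrases at the cell surface. Both had low counts: Car12 had 24 and 34 in the untreated and 14 and 12 in the IAA libraries, and Car9 35 and 40 against 18 and 19. Neither had an adjusted p in the authors' deposited table. Among the rises, named after their values were seen, were the histone demethylase gene Kdm3a (0.71), the heme oxygenase gene Hmox1 (0.53) and Cited2 (0.43), whose product competes with HIF for its coactivators. Of 14 HIF partners and regulators 4 were lower and 5 higher, Hif3a (-1.09), Rbx1 (-0.55), a subunit of the VHL ligase, and Crebbp (0.41), a coactivator, changing most. The genes of the VHL ligase went different ways: Vhl was higher (0.21), Rbx1 and Elob (-0.35) were lower, and Cul2 (-0.03) and Eloc (0.07) were not called, these too named after their values were seen. Pdk1, Gys1, Gbe1 and Pfkfb4 stand in more than 1 of these lists.

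**Figure D4:**
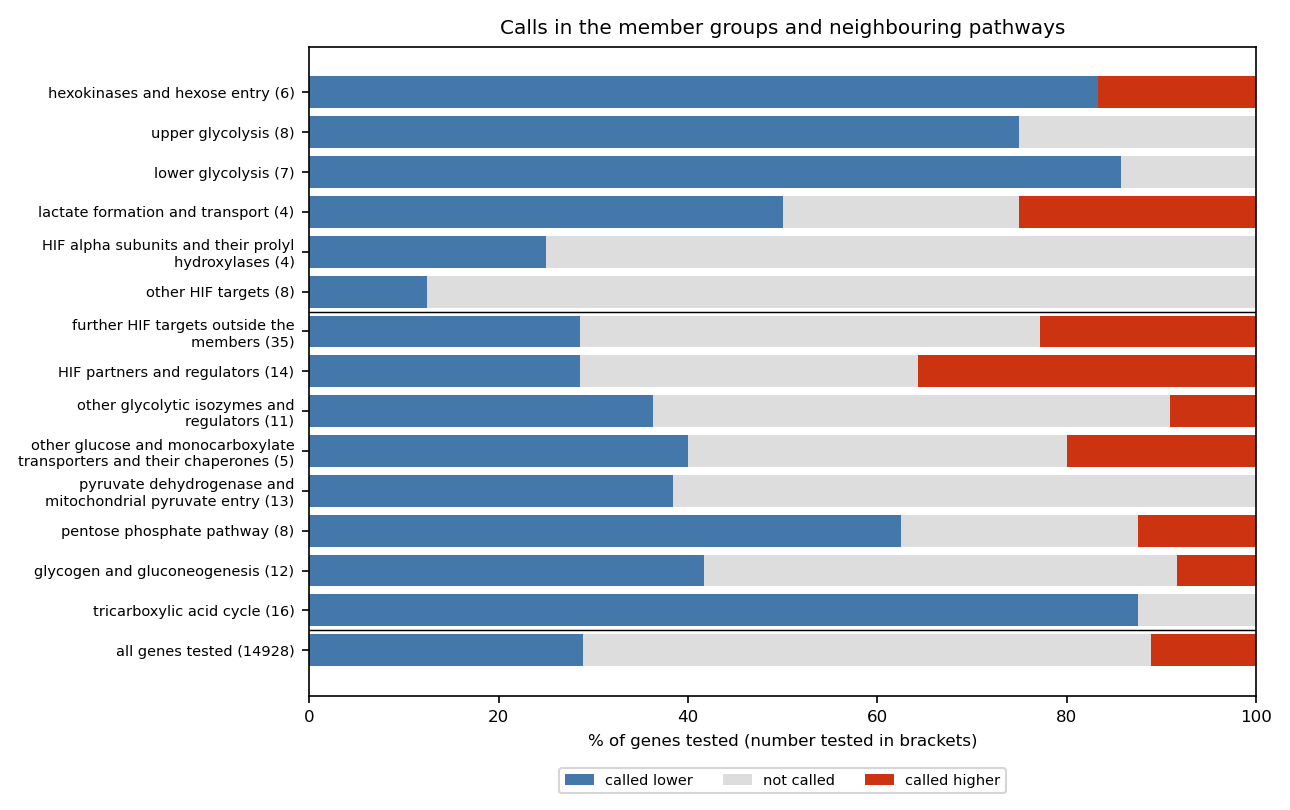
Bars give the share (%, horizontal axis) of tested genes called lower, called in neither direction and called higher in each list (vertical axis), above the same for all genes tested (28.9% lower, 11.1% higher). Lower calls fill most of the bars of hexose entry, upper and lower glycolysis and the tricarboxylic acid cycle (14 of 16), while the 8 other HIF targets have 1 lower call.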

How the data were processed

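Poly(A) RNA libraries of 2 untreated and 2 IAA samples were analysed, grouped by their titles. The submitters' processing notes name cutadapt 1.18, STAR, Bowtie2, SAMtools, featureCounts, deepTools and DESeq2 with the builds mm10 and dm6. Annotation, strand setting and the origin of the scaling factors (mouse reads or the Drosophila S2 spike-in) were not found in the labels. The authors deposited library columns that are scores: counts divided by 1 factor per library (0.88, 0.87, 0.98 and 0.95, worked out from the values) and rounded. The mean over the 4 libraries, deposited without rounding, is a signal. From it whole reads were recovered for 100% of genes (tolerance 0.001). The authors also deposited log2 fold changes with SEs, a test score, p-values and adjusted p-values, per the file headers.

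Genes whose mean reached at least 10 were tested with limma 3.58.1 (R 4.3.3, empirical Bayes with trend) on log2(value + 1), so fold changes are on that scale and understate those of low genes. The fit draws the variance of each gene toward a trend over all genes. A gene's SE can therefore be smaller than the spread of its own replicates would give. An adjusted p under 0.05 made a call. No count model was run on these scaled, rounded columns; limma voom on recovered reads was an alternative. Other alternatives were no filter, a filter at 100, 0.5 or 5 as pseudocount, median-of-ratios factors, leaving out each library, a replicate block, the authors' table and another transcript length for isozyme shares. The use of unrounded values was chosen after seeing the data. Coordinates and exon lengths (the union of all exons) are from GENCODE M21 (GRCm38). Near copies had at least 95% identity over 200 bases or more (blastn 2.17.0). The fit was run on simulated data with the same dispersion for every gene, to check its fold changes. That does not check the SEs or calls of genes whose replicates spread more. The genes and lists were chosen with earlier results of these data known. Named genes were those called with groups that do not overlap and an absolute log2 fold change of at least 0.3, the ends of each role group, isozymes of families with mixed calls, uncalled genes averaging 1000 or more, and the 3 called genes with the largest change per pathway list. All 37 genes are given, and 1 gene of a pathway list is not reported here.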

Additional observations from a re-analysis of the deposited data

How the results depend on the processing

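With no filter on low values, limma called 5 of the 37 genes lower and 0 higher (28 at an unadjusted p under 0.05), where 2.11% of all genes were lower and 0.591% higher. On unrounded values it called 12 and 0, where 6.34% and 2.06% of all genes were. Median-of-ratios factors gave 18 lower and 5 higher with a median of -0.12, and 13 were lower and 1 higher in the authors' deposited table. Leaving out 1 library gave 0 to 0 lower and 0 to 0 higher on rounded values, and 20 to 25 lower and 1 to 2 higher on unrounded values, with medians of -0.27 to -0.18 in both. On unrounded values without IAA replicate 1, Bnip3 (-0.45) was among the genes gained. Such fits assume that the lone library varies as much as the other group does. Some uncalled genes changed sign: with 1 library left out Eno3 ranged from -0.39 to 0.02, Slc16a3 from -0.25 to 0.12 and Egln3 from -0.08 to 0.22, and median-of-ratios factors gave Slc16a3 0.04, Bnip3l 0.02 and Ndrg1 0.01. By the length of the longest transcript, the share of Hk2 moved by 3.32 percentage points (2.64 by exon union), of Aldoa by 0.628 (0.995) and of P4ha1 by 6.49 (4.45). The cause of these differences was not tested.

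A mean of at least 100 gave 22 lower and 3 higher of 36 tested, where 38.6% and 15.5% of all genes tested were. Pseudocount 0.5 gave 21 and 2, and pseudocount 5, voom and unrounded values each 22 and 2, where between 28.8% and 30.5% of all genes were lower and between 11.0% and 12.0% higher. Same-numbered libraries did not deviate together (correlation of deviations 0.0015, and -0.06 for means of at least 100), so the numbers were not taken to pair them. With the replicate number as a block 22 were lower and 2 higher (28.9% and 11.0% of all genes), Tpi1 being added (adjusted p = 0.0478). Precision is limited by 2 libraries per group.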
